A study of Homo sapiens with 36 samples.

Results

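The regions described here are places in the genome of 786-O cells where an antibody against the V5 tag gave a peak although the cells carried no V5 tag. The peaks of all 18 anti-V5 Cut&Run lists on chromosomes 1 to 22, X and Y were merged wherever they overlapped, which gave 61215 regions. A region was kept when at least 2 of the 3 lists from untagged wild type (WT) cells had a peak in it, whatever the other lists held. This rule kept 498 regions, beside 25783 regions called in at least 2 of the 18 libraries. The WT calls chose these regions, so every WT value below is a description and was not tested.

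Cut&Run tethers a nuclease to an antibody on chromatin and sequences the fragments that are cut free. The 36 samples were 18 anti-V5 libraries and 18 IgG control libraries from 6 lines of 786-O, a human clear cell renal cell carcinoma line, with 3 biological replicates per line. All lines shared the background of 786-O cells, which lack a working VHL protein and therefore keep HIF-2a stable at normal oxygen. These cells also lack functional HIF-1a through a truncating mutation. Endogenous HIF-2a was present without a tag in WT cells and in the 4 lines with an exogenous protein made from them. WT cells carried no tag, and HIF-2a KIN was 1 homozygous clone (A31) with V5 and Halo fused to the endogenous HIF-2a protein. The other 4 were stable lines made by PiggyBac transposition and antibiotic selection, in which an L30 promoter drove an exogenous V5-Halo protein. These proteins were HIF-2a, HIF-1a and the chimeras HIF-2a/1a and HIF-1a/2a, named first by the part with the DNA-binding domain (DBD) and second by the part with the intrinsically disordered region (IDR) at the C terminus. The WT lists measure what the anti-V5 antibody gives in the absence of its epitope, and the study used WT cells to control for such binding. Each list, WT or tagged, was itself called against an IgG library of its own line.

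Hypoxia-inducible factors are dimers of an α subunit and HIF-1β that recognise the hypoxia response element (HRE), a short core of ACGTG or GCGTG read on either strand. Peaks in cells without an epitope are a known feature of antibody-directed nuclease assays, where the nuclease also cuts accessible chromatin. AP-1 is a dimer of JUN and FOS family proteins that recognises TGACTCA or TGAGTCA and is common at active enhancers. These sentences are background and were not tested here.

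The sequences of a few regions are printed to show what lay under the WT summits, each as the summit base of WT replicate 2 and the 50 bp to either side on the plus strand (hg38). Capitals mark an HRE core or an AP-1 motif on either strand, and a sequence without capitals held neither. The first 3 were among the strongest regions of the WT lists, the next 2 were called in no tagged library, and the last 2 had the highest levels in tagged cells among regions printed here. Regions are named by the nearest protein-coding transcription start site (TSS), or by the gene that holds them.
GALNT9 region, chr12:132393667-132393767: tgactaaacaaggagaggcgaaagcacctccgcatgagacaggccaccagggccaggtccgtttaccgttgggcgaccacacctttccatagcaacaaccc
SNX29 intron, chr16:12323270-12323370: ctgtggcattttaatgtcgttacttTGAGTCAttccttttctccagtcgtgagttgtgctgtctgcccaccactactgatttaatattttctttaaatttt
UBR4 region, chr1:19052675-19052775: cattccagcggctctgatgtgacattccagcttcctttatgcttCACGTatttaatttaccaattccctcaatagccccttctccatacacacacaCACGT
ROR1 intron, chr1:63991943-63992043: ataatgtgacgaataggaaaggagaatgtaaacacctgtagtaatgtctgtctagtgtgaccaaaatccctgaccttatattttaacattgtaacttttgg
PIEZO2 region, chr18:11325375-11325475: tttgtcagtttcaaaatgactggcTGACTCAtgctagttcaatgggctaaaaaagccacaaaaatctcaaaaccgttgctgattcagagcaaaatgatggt
FOSL2 intron, chr2:28409519-28409619: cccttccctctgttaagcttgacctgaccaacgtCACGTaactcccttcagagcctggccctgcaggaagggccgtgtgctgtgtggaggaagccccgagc
DNAH5 region, chr5:14036198-14036298: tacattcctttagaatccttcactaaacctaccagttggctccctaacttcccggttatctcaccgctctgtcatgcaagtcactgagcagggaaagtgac
The UBR4 and FOSL2 sequences held an HRE core close to the summit, the SNX29 and PIEZO2 sequences held an AP-1 motif, and the other 3 held neither motif within these letters.

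The membership rested on WT replicate 2. That list held 9508 peaks, against 392 in replicate 1 and 743 in replicate 3, and it called all 498 regions. WT replicate 3 called 486 of them and WT replicate 1 called 38. A total of 460 regions were in replicates 2 and 3, 12 in replicates 1 and 2, and 26 in all 3. No region was called in replicates 1 and 3 alone. Requiring both remaining lists left 486 regions without replicate 1, 38 without replicate 3 and 26 without replicate 2. Of the 738 regions in the WT replicate 3 list, 65.9% were among the 498. The depth behind these lists, inferred as the genome-wide mean number of fragments per base, was 0.302, 0.280 and 0.241 in WT replicates 1 to 3 and 0.253 to 0.593 in the tagged libraries.

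Beside the threshold of 2 lists stood 9519 regions that were called in exactly 1 WT list, 8913 of them in replicate 2. In WT replicate 2 the regions in exactly 2 lists had a median deposited fold enrichment of 8.80 and those in 1 list 4.69. In WT replicate 3 the corresponding medians were 7.16 and 5.90. The ranges overlapped in both libraries, from 2.03 to 59.6 for 2 lists and from 2.14 to 48.1 for 1 list in replicate 2.

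Fewer of the 498 regions than of the other regions called in at least 2 libraries lay at promoters. Their median merged length was 1108 bp (quartiles 724 and 1668 bp), against 674 bp for the other regions. Merged length grew with the number of lists that called a region, from a median of 654 bp at 0 to 5 tagged calls to 1820.5 bp at 15, so it is partly set by the merging. By the WT replicate 2 summit, 59 were within 1 kb of a protein-coding TSS (11.8%, against 28.8% of the other regions). Outside promoters 218 were in introns of protein-coding genes (43.8% against 34.8%), 142 were intergenic (28.5% against 23.1%), 53 were in introns and 14 in exons of long non-coding RNAs, 8 were in untranslated regions and 4 in coding exons. The median distance to a TSS was 25089 bp, against 11675 bp for the other regions. They were spread over all autosomes and X, and chromosomes 1, 2 and 7 held most, with 52, 47 and 33. These were 10.4%, 9.44% and 6.63% of the 498, close to the 9.73%, 8.25% and 5.09% of all 25783 regions there. As a share of a chromosome's own regions, the 498 were most frequent on chromosomes 22 (3.15%) and 16 (2.91%), named after their values were seen. Chromosome X held 1 of the 498 regions but 510 of the 25783.

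Some regions lay close together. Windows of 1 Mb with a single region numbered 221, and the fullest window, chromosome 19 from 2000001 to 3000000, held 7, of which 4 were in introns of GNG7, a G protein subunit gene. Windows with 6 regions lay on chromosomes 5, 7 and 8. In the first, 5 regions were in introns of ERGIC1, and in the second, 5 were in introns of PRKAG2, a regulatory subunit gene of AMP-activated kinase. All 6 on chromosome 8 were in introns of PVT1, the long non-coding RNA gene beside MYC, between 127870234 and 127912442. The median tagged levels of the PVT1 regions ran from 55.3 to 300 times the genome mean and their WT replicate 2 levels from 50.0 to 371. In WT replicate 2 the highest of the 6 was chr8:127898306-127899960, called in 15 of 15 tagged libraries at 79.3 to 298, so that WT stood above every tagged library there.

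Few genes of the listed groups had such a region near them. Of 19663 protein-coding genes, 175 (0.890%) had a recurrent WT region within 10 kb of a TSS. Of 44 HIF target genes 1 did, SLC2A1, which encodes the glucose transporter GLUT1, while 43 of the 44 (97.7%) had another region called in at least 2 libraries within 10 kb. For such other regions the share was 50.2% over all protein-coding genes and 72 to 92.9% over the other lists. Of 10 AP-1 subunit genes 1 did, JUNB. None of the 6 example loci of the study, the 28 immediate early and stress genes, the 35 ribosomal protein genes or the 25 genes of abundant small RNAs did. These lists were chosen with results of these data known and the counts are a description.

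Anti-V5 signal was compared as summit pileup, the number of fragments over the summit divided by the genome-wide mean of the same library. The local IgG background was not divided out, so a high pileup can go with a low fold over it. In WT replicate 2 the SUSD1 region had a pileup of 232 and a deposited fold of 3.32, and the GALNT9 region 1107 and 38.8. Each level is that of the strongest peak a library had in the merged region. The strongest region in WT cells was an intergenic one 64128 bp from the TSS of GALNT9, a glycosyltransferase gene (chr12:132393463-132394927). Its WT pileup was 205, 1107 and 440 times the genome mean in replicates 1 to 3. In HIF-2a KIN it was 151, 552 and 250, and in the 12 exogenous libraries it ran from 49.6 to 283. At each replicate number WT was the highest of the 6 lines and HIF-2a KIN the second, and no exogenous library reached the KIN value of its replicate number.

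The next 7 regions by WT rank among those called in 3 of 3 WT lists varied in how often tagged cells called them. The region at the promoter of CARD10, a scaffold protein of NF-κB signalling (chr22:37511805-37513023), had WT pileups of 149, 661 and 307 and tagged pileups from 113 to 563 (median 179, 15 of 15 called). The intergenic region next to MT1X, a metallothionein gene (chr16:56679735-56680728), had 79.4, 414 and 241 in WT and 47.8 to 233 (median 97.1) in the 14 tagged libraries that called it. The SNX29 intron region (chr16:12322511-12323826) had 92.6, 328 and 154 in WT and was called in only 8 tagged libraries, at 21.9 to 109. All 3 HIF-2a KIN libraries were among those 8. The CLIP2 promoter (chr7:74288269-74289573) had 59.5, 525 and 303 in WT and 17.1 to 298 in 11 tagged libraries. The UBR4 region (chr1:19052480-19053224), the ECE1 intron region (chr1:21324152-21325513) and the ERRFI1 region (chr1:8167097-8168765) were called in 13, 14 and 12 tagged libraries with median tagged pileups of 65.3, 141 and 81.6. For the replicate 2 libraries, the ratio of the tagged median to WT was below 1 at all 8 regions, from 0.147 at SNX29 to 0.897 at ERRFI1. These regions were picked for their WT rank, which favours a ratio below 1.

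At the other end, 12 regions were called in no tagged library. The 6 of them with the best WT ranks lay in an intron of ROR1, a receptor kinase gene (chr1:63991790-63992213), in introns of GPR19 (chr12:12672803-12673647), PTPN14 (chr1:214463667-214464086) and the long non-coding RNA DELEC1 (chr9:115167150-115167563), and in intergenic sequence nearest PIEZO2 (chr18:11325249-11325639) and CRELD2 (chr22:49931026-49931368). Their WT replicate 2 pileups ran from 39.3 at PTPN14 to 114 at ROR1, inside the range of 14.3 to 1107 over all 498 regions. None of the 12 held an HRE within 50 bp of the WT summit, 2 held an AP-1 motif and none was at a promoter. A region without a tagged call was not called there at this depth and is not shown to lack signal.

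The highest levels in tagged cells lay above WT. The intergenic region nearest NDRG1, a hypoxia-induced gene whose TSS lay 74349 bp away (chr8:133373684-133378012), had WT pileups of 82.1 and 83.0 in replicates 2 and 3 and no call in replicate 1. In the 15 tagged libraries its pileup ran from 1239 to 6303 with a median of 2077, and the replicate 2 median was 60.0 times the WT value. At the FOSL2 intron (chr2:28406549-28410711), in a gene for an AP-1 subunit, WT had 96.4 and 66.4 while tagged libraries ran from 414 to 2843 (median 974). The region nearest TRIB1, a pseudokinase gene (chr8:125443401-125444235), had 229 and 154 in WT and 542 to 3418 (median 1227) in tagged cells. DNAH5 (chr5:14035463-14040125), SLCO4A1 (chr20:62621414-62624624) and SUSD1 (chr9:112040951-112042863) completed the 6 highest, with median tagged pileups of 796, 667 and 640 and WT replicate 2 values of 321, 143 and 232. At all 6 every tagged library stood above the WT library of the same number in replicates 2 and 3. These regions were picked for their tagged pileup, which favours tagged levels above WT. The merged regions were up to 4663 bp long, at DNAH5, so WT and tagged peaks need not coincide. The SLC2A1 promoter region (chr1:42940865-42945140) had 78.5 and 112 in WT and 76.7 to 607 (median 318) in tagged cells. Its promoter label comes from the WT replicate 2 summit. Tagged summits lay a median of 2179 bp from that summit, so the WT and tagged levels need not belong to the same peak. The JUNB region (chr19:12793340-12794454) had 189 and 108 in WT and 54.0 to 243 (median 102) in 12 tagged libraries.

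**Figure D1:**
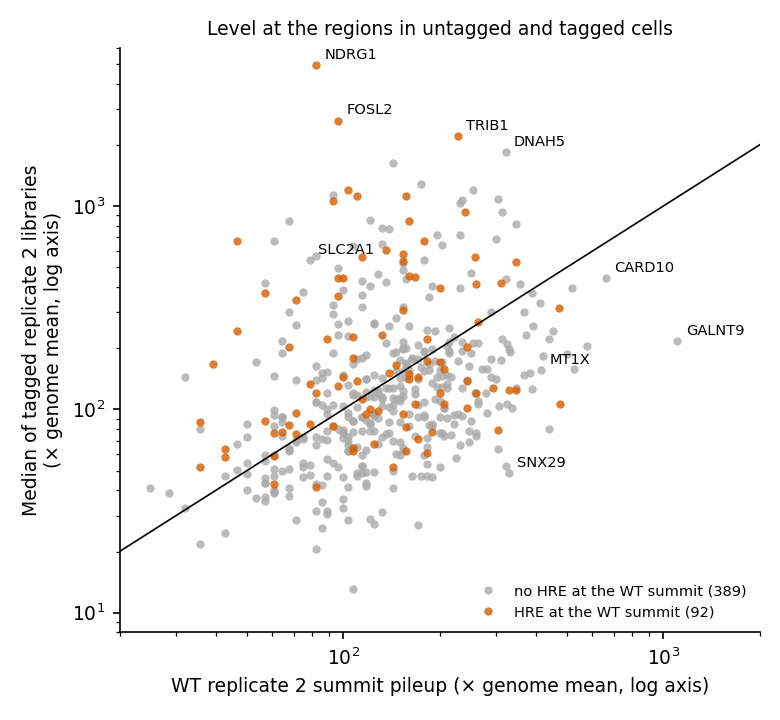
Each point is a recurrent WT region with a peak in at least 1 tagged replicate 2 library (481 of 498), plotted by its summit pileup in WT replicate 2 and the median over the tagged replicate 2 libraries that called it, both as multiples of the genome mean on log axes, with the line of equality. Points with an HRE at the WT summit (92) spread upwards to NDRG1, while GALNT9, CARD10 and SNX29 lie below the line.

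Over all the regions the WT level was neither uniformly below nor above the tagged level. The median log2 ratio of the tagged median to WT was -0.26 in replicate 2 (quartiles -0.87 and 0.53, 481 regions) and -0.02 in replicate 3 (quartiles -0.60 and 0.69, 441 regions). At 80 of the 486 regions called in WT replicates 2 and 3, all 5 tagged lines were called and stood above WT in both replicates. At 132 of the 486, WT stood above every tagged library that called the region, again in both replicates. The WT and tagged peaks compared need not coincide. The distance between their summits had a median over regions of 67.5 bp in the 80 and 48 bp in the 132. At an EDN2 region among the 80 (chr1:41495049-41501157) the distance was 2197 bp. WT levels chose the regions and both levels chose the 80 and the 132, so these counts are a description and carry no test. Calling the regions background describes only that they were called without an epitope. Where the levels of the 317 regions called in all 5 tagged replicate 2 libraries were compared across regions, Spearman's rho was 0.70 to 0.90 between tagged libraries and 0.05 to 0.29 between WT and a tagged library. Calls in WT and in tagged cells both chose the 317. Over 486 regions rho was 0.39 between WT replicate 2 and the tagged median. Between WT replicates 2 and 3 it was 0.80, also over 486 regions. These values are a description over regions that share libraries and local depth, and regions are not replicates.

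The HRE shares of these classes are given as a description with no test, since the classes were formed from tagged and WT levels and also differed in length. In the 80 regions with the higher tagged level, 29 (36.3%) held an HRE within 50 bp of the WT replicate 2 summit, against 17.5% in equally wide windows placed 1 kb away on both sides. In the 132 regions with the higher WT level, 19 (14.4%) did, against 16.3% in the flanks, and in the remaining 274, 44 (16.1%) did, against 17.2%. The AP-1 motif was found in 13 of the 80 (16.3%), 23 of the 132 (17.4%) and 27 of the 274 (9.85%). Median lengths were 1844, 950 and 1016 bp in the same order.

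Most of the recurrent WT regions were also called in tagged cells. The median region was called in 12 of the 15 tagged libraries, 118 (23.7%) were called in all 15 and 372 in at least 1 library of every tagged line. The share of all 25783 regions called in all 15 was 6.67%. Among the 9519 regions in a single WT list, 6329 (66.5%) were called in no tagged library and 401 in all 15.

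**Figure D2:**
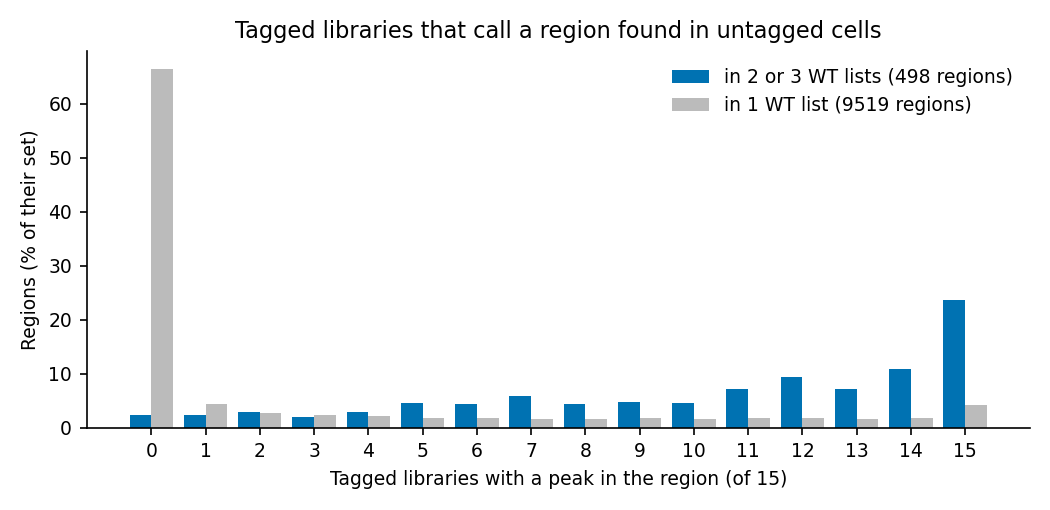
Bars give the share of regions (% of their set) by the number of tagged libraries, of 15, with a peak there, for the 498 regions in 2 or 3 WT lists and the 9519 regions in 1 WT list. The first set piles up at 15 libraries (23.7%), the second at 0 (66.5%). Regions of the second set at 0 were called in 1 library only, while the rule requires at least 2 for the first set.

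By line, the number of the 498 regions called in at least 2 of 3 libraries was 328 (65.9%) in HIF-2a KIN, 267 (53.6%) in HIF-2a, 398 (79.9%) in HIF-2a/1a, 395 (79.3%) in HIF-1a and 356 (71.5%) in HIF-1a/2a. The shares of all 25783 regions called by the same criterion were 19.6%, 26%, 53.7%, 55.1% and 42.4%. The share was above that of all regions in each of the 5 lines. WT level and tagged calls moved together across these regions (Spearman's rho 0.34 over 498), a description with no test.

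The lines were compared by the percentage of the 498 regions with a peak per library. It was 62.3 ± 23.1 (SD, n = 3) in HIF-2a KIN, 57.4 ± 23.9 in HIF-2a, 77.7 ± 10.7 in HIF-2a/1a, 77.3 ± 7.23 in HIF-1a and 70.5 ± 4.17 in HIF-1a/2a. The 6 libraries with the HIF-2a IDR averaged 13.6 percentage points below the 6 with the HIF-1a IDR, a difference that did not pass the test (two-sided exact permutation test within DBD, p = 0.135, Benjamini-Hochberg adjusted over the 10 tests of these regions p = 0.193). Over all 25783 regions the same difference was -15.9 points (40.4% against 56.4%), so the recurrent WT regions were near what all regions showed. The test above exchanged labels across replicate numbers. The difference was -17.4, -6.43 and -16.9 points within replicates 1, 2 and 3. With labels exchanged only within replicate numbers p was 0.0313 (exact permutation test, adjusted p = 0.0521). This is the smallest p the blocked test can give, so beside the other p-values it could not pass, and missing the threshold decides nothing. Without HIF-2a replicate 2 it was -20.4 points (exact permutation test, adjusted p = 0.025). The HIF-2a DBD averaged 6.33 points below the HIF-1a DBD (exact permutation test, p = 0.42, adjusted p = 0.508). Over all regions that difference was -5.83 points. Exogenous lines averaged 8.42 points above HIF-2a KIN (exact permutation test, p = 0.457, adjusted p = 0.508), against 25.1 points over all regions (48.4% and 23.3%). Without KIN replicate 1 the difference was -4.27 points, and on the 26 regions left without WT replicate 2 it was -2.24.

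These percentages moved with the length of the lists, which ran from 3984 peaks in HIF-2a KIN replicate 1 to 20808. With every tagged list reduced to its 3984 strongest peaks by −log10 p, HIF-2a KIN held the most recurrent WT regions, 184, 286 and 244 in replicates 1 to 3. HIF-2a then held 173, 176 and 160, HIF-2a/1a 165, 156 and 162, HIF-1a 171, 159 and 155, and HIF-1a/2a 167, 174 and 178. All 3 KIN libraries stood above all 12 exogenous libraries. With members found again in the shortened lists, the exogenous lines averaged 14.3 percentage points below KIN (exact permutation test over 15 libraries, p = 0.0022, the smallest it can give, adjusted p = 0.0044). This test exchanged single libraries across lines and replicate numbers. Its p therefore covers the spread between libraries and not between lines. The IDR difference then turned to 1.95 points (exact permutation test, adjusted p = 0.05, not below the threshold). The weakest peak kept had a −log10 p of 5.11 to 18.7 in KIN and 9.51 to 80.0 in the exogenous libraries, and the part of that difference in signal was not tested. HIF-2a KIN is a single clone, so the clone and the endogenous expression of the tag cannot be told apart.

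**Figure D3:**
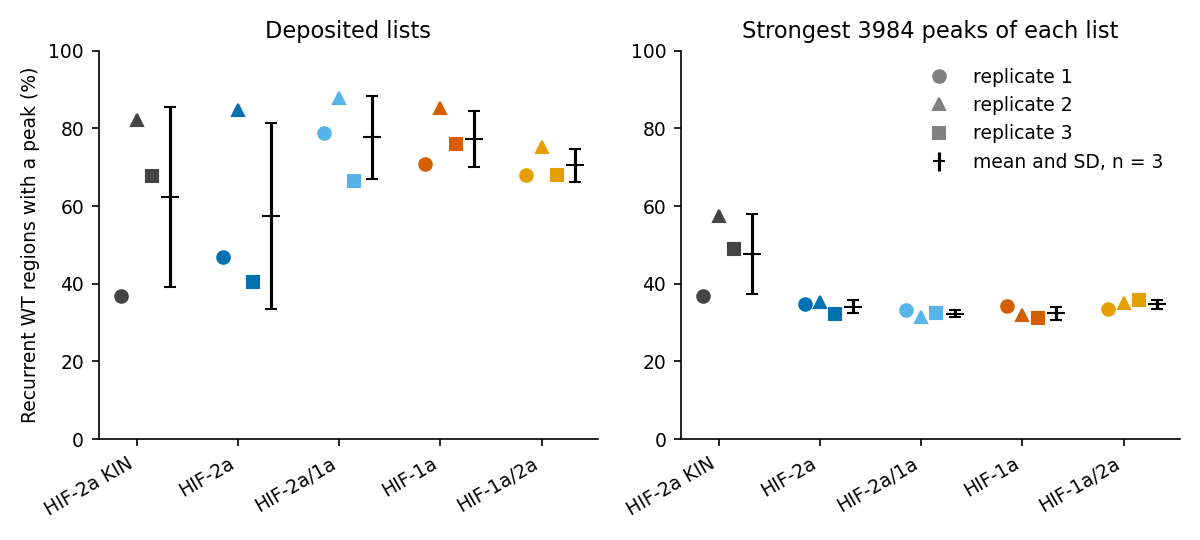
Points are the percentage of the 498 recurrent WT regions with a peak in each tagged library, by line and replicate, for the deposited lists (left) and for the 3984 strongest peaks of each list (right), with the mean and SD of the 3 replicates. The spread within lines is wide at left, and at right HIF-2a KIN (36.9, 57.4 and 49.0%) lies above the exogenous lines (31.1 to 35.7%).

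The level of signal was compared at the 154 regions called in all 12 exogenous libraries. The median log2 pileup was 0.23 lower with the HIF-2a IDR, and the test did not pass (exact permutation test within DBD, p = 0.575, adjusted p = 0.575). That test exchanged labels across replicate numbers. Within replicates 1, 2 and 3 the difference was -0.20, -0.12 and -0.37. With labels exchanged only within replicate numbers it did not pass either (exact permutation test, p = 0.3125, adjusted p = 0.364). The IDR difference was -0.61 with the HIF-2a DBD and 0.15 with the HIF-1a DBD, and the difference between these was not tested. At the 118 regions called in all 15 tagged libraries, the median pileup relative to that of 1201 regions called in all 15 tagged and no WT library was 1.2, 1.35 and 1.31 in HIF-2a KIN. It was 1.00 to 1.06 in the 6 libraries with the HIF-2a DBD on an exogenous protein and 1.21 to 1.4 in the 6 with the HIF-1a DBD, with no overlap between them. The tagged protein of HIF-2a KIN also has the HIF-2a DBD, and all its values lay above those of the 6 exogenous libraries with that DBD. This ratio was chosen after its values were seen and was not tested. Both sets rose in replicate 2 of every tagged line: at the 118 regions the replicate 2 median was 303 to 467 times the genome mean, against 95.2 to 197 in replicate 1 and 138 to 246 in replicate 3.

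Calls at single regions could not be tested by IDR after adjustment. The smallest p of Fisher's exact test with 6 against 6 libraries is 0.00216, which 1117 of the 25783 regions would have had to reach for an adjusted p of 0.05, and 48 did. The adjusted test therefore called 0% of all regions, none of the 498 among them, which does not show that calls were alike. At an unadjusted p under 0.05 it took 1.39% of all regions and 2 of the 498 (0.402%). These were an intron region of CLYBL (chr13:99826954-99827680), called in 1 of 6 libraries with the HIF-2a IDR and 6 of 6 with the HIF-1a IDR, and a region 2104 bp from the TSS of PNPLA3 (chr22:43921463-43922396), called in 0 of 6 and 5 of 6, each with an exact p of 0.0152 and an adjusted p of 1. At PNPLA3 both HIF-2a KIN replicates 2 and 3 were called, at 160 and 109, below the WT values of 229 and 125.

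Within each tagged list the peaks in the recurrent WT regions were compared with all other peaks of the same list, a comparison the rule did not use. The 15 libraries share these regions, so the exact paired permutation tests, two-sided over the 15 differences, cover the spread between libraries and not between regions. The peaks in recurrent WT regions ranked higher. Their median rank percentile by −log10 p, where 0 is the strongest peak, was 30.2 ± 5.56 (SD over 15 libraries), against 50.3 ± 0.468 for the others. The difference of -20.1 had the same sign in 15 of 15 libraries (exact paired permutation test, p = 6.1e-05, the smallest the 15 differences can give, adjusted p = 0.000122). It was -12.1 at a −log10 q of at least 5, -7.92 with lists of equal length and -12.9 against only regions called in at least 2 libraries, an alternative chosen after seeing the data, and passed in each.

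Within the tagged lists the AP-1 motif was more frequent in these regions and promoters were rarer. Within 50 bp of the summit, 13.1 ± 1.53% of peaks in recurrent WT regions held TGACTCA or TGAGTCA, against 7.68 ± 0.591% of other peaks, and 1 kb to either side 2.55% and 1.70% did. The difference of 5.44 points was positive in 15 of 15 libraries (exact paired permutation test, adjusted p = 0.000122). Summits within 1 kb of a protein-coding TSS made up 12.3 ± 0.752% against 27.7 ± 3.51%, a difference of -15.4 points in the same direction in 15 of 15 (exact paired permutation test, adjusted p = 0.000122). Within 50 bp of the summit GC content was 56.1 ± 0.487% against 53.5 ± 1.55% (difference 2.62, positive in 15 of 15, exact paired permutation test, adjusted p = 0.000122). The GC difference was 1.34 at a −log10 q of at least 5 and 0.904 with lists of equal length, and in the alternatives chosen after seeing the data it was 0.966 against regions called in at least 2 libraries and 5.67 without promoter peaks, all past the threshold. The WT lists, given as a description, did not all show the same. Promoters held 13.2%, 11.8% and 11.3% of the recurrent regions in WT replicates 1 to 3. Of the other regions in those lists they held 1.41%, 9.44% and 16.7%. The AP-1 shares there were 10.5%, 12.9% and 13.0%, against 2.26%, 5.15% and 11.5%.

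The HRE comparison changed with the settings. An HRE was found at 24.9 ± 2.74% of summits in recurrent WT regions and 26.2 ± 2.16% of other summits, a difference of -1.26 points that was negative in 10 of 15 libraries and missed the threshold after adjustment (exact paired permutation test, p = 0.0392, adjusted p = 0.0654). It passed under 5 alternatives for peaks and motif, with adjusted p of 0.000814 at a −log10 q of at least 5 (-2.90 points), 0.00102 with summit windows (-2.06), 0.0201 with lists of equal length (-2.40), 0.00509 for TACGTG (-1.10) and the wider motif window given next, all by the exact paired permutation test. Against only the regions called in at least 2 libraries, an alternative chosen after seeing the data, it was -3.87 points (exact paired permutation test, adjusted p = 0.000122). The direction depended on what was compared. With promoter peaks left out, an alternative chosen after seeing the data, the shares were 23.9% and 20.9% and the difference was 3.04 points (exact paired permutation test, adjusted p = 0.00122, positive in 12 of 15). With an HRE counted within 100 bp it was -3.98 points (exact paired permutation test, adjusted p = 0.000509), and on the 26 regions left without WT replicate 2 it was 0.30 (adjusted p = 0.895). Without HIF-2a KIN replicate 1 (adjusted p = 0.0277), HIF-2a replicate 2 (0.0401), HIF-1a/2a replicate 1 (0.0494) or HIF-1a/2a replicate 2 (0.0405) it ran from -1.46 to -1.39 and passed the same exact test. In the same lists the flanks held an HRE in 17.2% and 14.2%, so summits stood 7.67 and 12.0 points above their own flanks. In WT replicates 1 to 3 an HRE lay at 7.89%, 18.5% and 19.1% of summits in recurrent regions. The shares for the other regions of those lists were 6.78%, 12.3% and 12.3%, a description with no test.

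**Figure D4:**
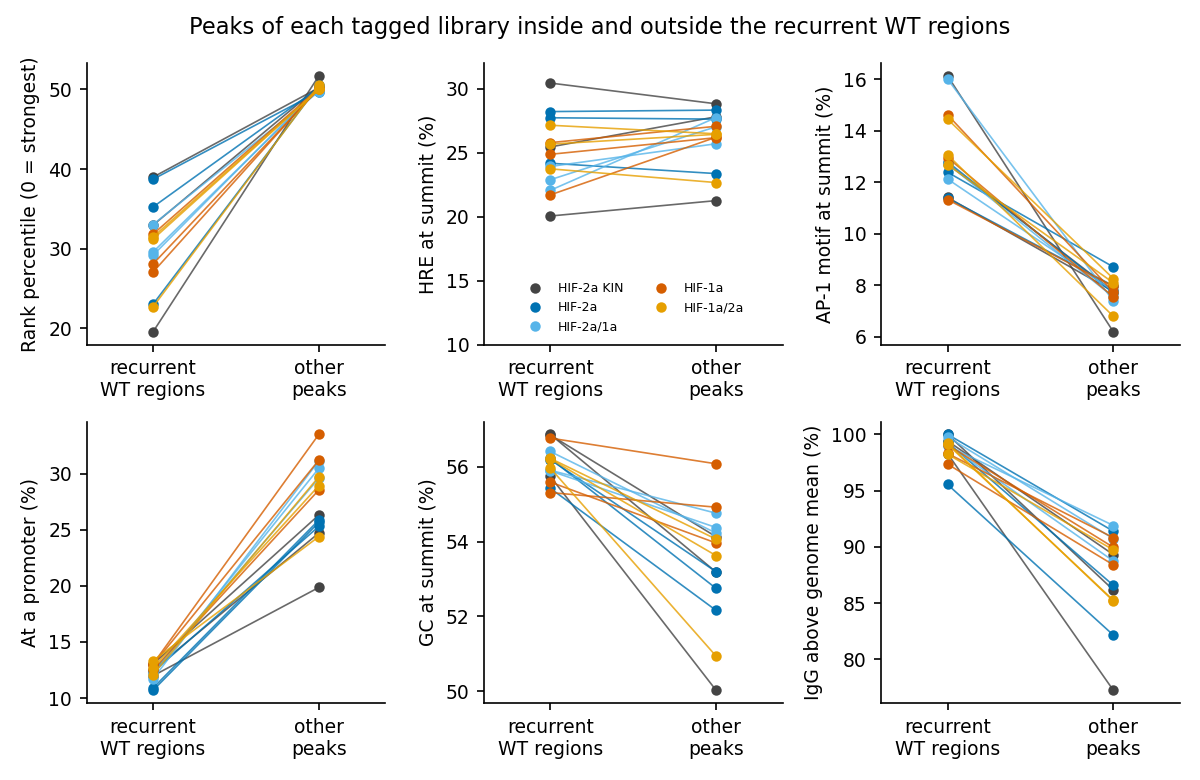
Each line joins, for 1 of the 15 tagged libraries, its peaks in the recurrent WT regions and its other peaks, coloured by line of cells. Panels give the median rank percentile (0 is strongest) and the percentages with an HRE, with an AP-1 motif, at a promoter, GC and with IgG background above the genome mean, on axes that do not start at 0. All lines run the same way except for the HRE.

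Further motifs were searched without a test. TGTGGT, a core bound by RUNX factors, lay within 50 bp of 13.8 ± 1.62% of summits in the recurrent WT regions and 8.55 ± 0.393% of others. GGAATG, a core bound by TEAD factors, did so at 11.4 ± 0.720% and 7.38 ± 0.314%. Both shares were higher in the recurrent WT regions in 15 of 15 tagged libraries. Other motifs went the opposite way, namely an ETS motif (0.920% against 1.93%, higher in 0 of 15), the GC box (11.3% against 13.2%, higher in 2 of 15) and the CCAAT box (9.99% against 12.1%, higher in 2 of 15). Of all peaks outside these regions in the 18 lists, 25.0% held an HRE, 7.45% an AP-1 motif, 8.44% the RUNX core and 7.35% the TEAD core. The CTCF motif was rare in both sets, at 0.108% and 0.187% of summits. A match is a description of the letters and not a bound site.

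The control libraries also showed more signal at these regions. The local background that MACS2 took from the IgG library, worked out per peak from its fold and −log10 p, lay above the genome mean at 98.8 ± 1.15% of peaks in recurrent WT regions and 87.6 ± 3.96% of other peaks of the tagged lists. The difference of 11.2 points was positive in 15 of 15 libraries (exact paired permutation test, adjusted p = 0.000122). Among peaks within the first 20 rank percentiles of each list, an alternative chosen after seeing the data, it was 3.09 points, and it was 6.58 at a −log10 q of at least 5, 4.59 with lists of equal length and 5.78 against only regions called in at least 2 libraries, also chosen afterwards (for the first, exact paired permutation test, adjusted p = 0.000153). In WT replicate 2 the median background was 9.64 times the genome mean at the 498 regions and 1.24 at the other regions of that list. The part of IgG signal in the peaks themselves was not tested.

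The HRE share at the WT summit rose with the number of tagged libraries that called a region, while the AP-1 share did not. At the 87 regions called in 0 to 5 tagged libraries an HRE lay at 6 WT replicate 2 summits (6.90%), at the 156 called in 6 to 11 at 22 (14.1%), at the 137 called in 12 to 14 at 27 (19.7%) and at the 118 called in all 15 at 37 (31.4%). The flanking windows held an HRE in 13.8%, 17.6%, 17.9% and 17.8%. The AP-1 shares were 13.8%, 15.4%, 10.2% and 11.9%, against flanks of 1.15%, 1.28%, 2.55% and 2.12%. The WT replicate 2 level also rose across these groups, with medians of 96.4, 120, 150 and 157 times the genome mean. Mean GC was 50.1%, 54.7%, 56.9% and 56.8% in the same order. The groups were formed from tagged calls, and these trends are a description with no test. In all, 92 of the 498 regions (18.5%) had an HRE and 64 (12.9%) an AP-1 motif at the WT replicate 2 summit, 15 had both, and 396 held an HRE core somewhere in the merged region.

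**Figure D5:**
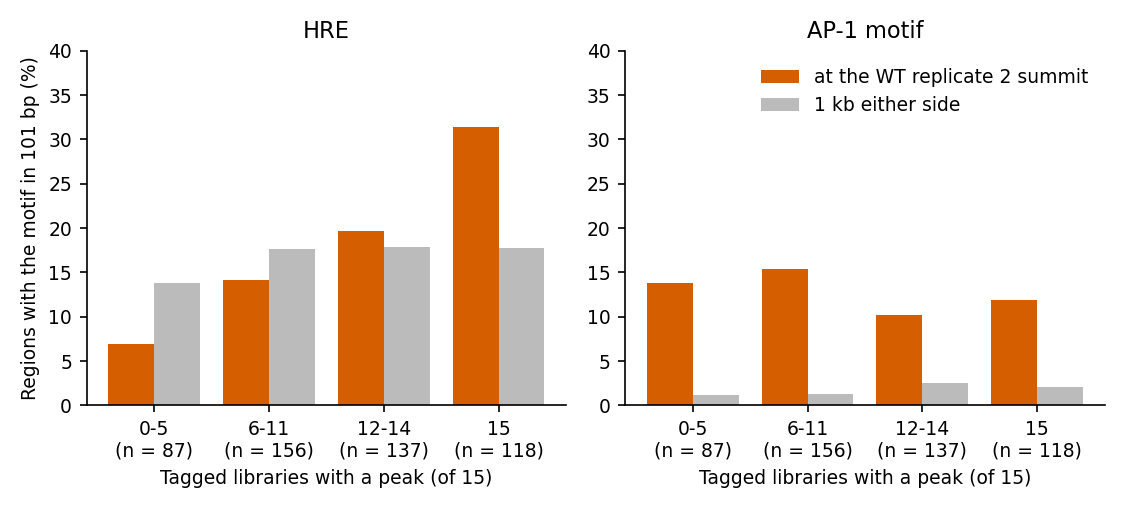
Bars give the percentage of regions with an HRE (left) or an AP-1 motif (right) within 50 bp of the WT replicate 2 summit and in windows 1 kb to either side, for regions grouped by how many of the 15 tagged libraries called them. The HRE share goes from 6.90% to 31.4% while its flanks stay at 13.8 to 17.9%, and the AP-1 share stays between 10.2% and 15.4%.

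WT and tagged peaks in 1 region were mostly close but not at the same base. Some long regions held peaks far apart, with median distances of 2197 bp at an EDN2 region (chr1:41495049-41501157) and 2179 bp at SLC2A1. The median distance between the WT replicate 2 summit and the summit of a tagged library was 47 to 72 bp over the 15 libraries, with 58.4 to 73.8% within 100 bp. Between WT replicates 2 and 3 it was 47.5 bp, with 77.0% within 100 bp.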

How the data were processed

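Groups and replicate numbers were taken from the sample labels, which give 3 biological replicates per line. The authors aligned reads to hg38 with bowtie2 2.3.4.1 and SAMtools 1.8, used MACS2 for peak calling (q-value 0.01, maximum gap 400, duplicates kept), each anti-V5 library against an IgG library, and removed blacklisted regions with BEDTools 2.28.0. The deposited narrowPeak lists give per peak a fold ratio over local background, −log10 p and −log10 q, and the summit offset. Depth is not stated. For every peak the summit pileup and local background that give its fold and −log10 p were computed (within 0.001 for 100% of peaks), with the lowest background of a list as its genome mean, and divided by it. Levels thus exist only where a peak was called. The IgG libraries act here solely as the background of the calls.

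Peaks were merged at any overlap of 1 bp, and the strongest peak per region and library was used. Members, gene lists and tests were chosen with earlier results of these data known. Named regions were the 8 members in 3 of 3 WT lists with the best mean WT rank, the 6 with fewest tagged calls, the 6 with the highest median tagged pileup among those with at least 12 tagged calls, members within 10 kb of a listed gene, and the fullest chromosomes and 1 Mb windows with their ties. The 2 regions named for the Fisher test were chosen after their values were seen. Motifs, GC and distances used hg38 and GENCODE 44. Tests were exact permutations over libraries (400 relabellings within strata, 455 for exogenous against KIN, 32768 sign changes for paired differences) with Benjamini-Hochberg adjustment over 10 tests, in Python 3.11.15, NumPy 2.4.6 and SciPy 1.17.1, after scripts were tested on simulated data. Deviations of log2 pileup from line means at the 1720 regions called in all 15 tagged libraries correlated between same-numbered libraries of different lines in all 30 pairs (r 0.107 to 0.413), so replicate numbers were taken as pairs in the blocked tests. Alternatives were stricter peaks, summit windows, 3 of 3 WT lists, shortened lists, other motif, promoter and GC windows, the replicate block and each library left out.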

Additional observations from a re-analysis of the deposited data

How the results depend on the processing

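Of 273 values computed under alternatives, 250 kept the direction and side of the threshold, or for counts stayed within 1.5 times. Rank percentile (-22.0 to -7.92), AP-1 (4.55 to 10.4 points), promoters (-18.6 to -10.4), GC (0.890 to 5.67) and IgG background (3.09 to 13.3) did so throughout, as did the DBD difference and the pileup by IDR, which passed in none. Not all of the 250 were free to change. The adjusted Fisher count was 0 in all 22 alternatives. Leaving out a KIN library does not touch the IDR, DBD and pileup differences. Requiring 3 of 3 WT lists and leaving out WT replicate 2 gave the same 26 regions. The 498 regions became 26 when called in 3 of 3 WT lists, and 26 to 486 without 1 WT list. Exogenous minus KIN was -2.24 points with 3 of 3 WT lists, -14.3 with lists of equal length, -2.24 to 8.45 without a WT list and -4.27 to 18.3 without a tagged library. The IDR difference was 1.95 with lists of equal length, -13.4 to -8.33 without a WT list and -20.4 to -9.34 without a tagged library. The HRE difference was -2.90 at a −log10 q of at least 5, -2.06 with summit windows, 0.30 with 3 of 3 WT lists, -2.40 with lists of equal length, -3.98 within 100 bp and -1.10 for TACGTG, and all of these but the third now passed (exact paired permutation test, adjusted p 0.000509 to 0.0201). It was -1.34 to 0.30 without a WT list and -1.46 to -0.94 without a tagged library. In 3 alternatives chosen after seeing the data it was 3.04 without promoter peaks, -3.87 against regions called in 2 or more libraries, both past the threshold, and 0.35 among the strongest peaks. The cause of these changes was not tested. With the replicate block the IDR difference of -13.6 points had p = 0.0313 (exact permutation test, adjusted p = 0.0521), and the block changed no call. That p is the smallest the blocked IDR test can give, so it could not pass beside the other p-values. Depth limits what the lists hold: levels exist only at called peaks, and a missing call is not an absence of signal.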
